A study of Mus musculus with 10 samples.

Results

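The ribosomal protein genes described here are the mouse genes whose symbols are Rpl or Rps followed by a number, with an optional letter or l at the end, together with Rpsa and the stalk genes Rplp0 and Rplp2. Genes of the Rps6k kinases and pseudogenes were left out. A gene counted as a member where a probe set of the array was annotated to that gene and no other, and its probe set with the highest mean over the 10 arrays stood for it. The rule gave 46 members of the 18193 genes with such a probe set, 22 of the small and 24 of the large ribosomal subunit. In all, 100 single-gene probe sets mapped to these members. The array carried symbols of 75 ribosomal protein genes, and 29 of them (Rplp1 among them) were reached only through probe sets that list several genes, mostly pseudogene copies. Of those 29 genes, 25 had a probe set that names 1 ribosomal protein gene, and their values are given beside those of the members.

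Liver RNA of wild-type and Gnmt knockout mice (Gnmt-/-) on a mixed 129/B6 background was hybridised to 10 Affymetrix arrays. The enzyme that Gnmt encodes, glycine N-methyltransferase, is abundant in liver and uses up S-adenosylmethionine, the methyl donor of the cell. The 4 arrays of 11 weeks were wild-type female, wild-type male, knockout female and knockout male liver, each a pool of 3 mice, so each genotype had 1 pool per sex. The 6 aged arrays were single knockout mice. The first were dysplastic nodule tissue and its adjacent liver (female, 21 months). The label reads dysplasia nodules, and the number of nodules is not given. The others were a hepatocellular carcinoma (HCC) and its adjacent liver (male, 18 months), and an HCC and its adjacent liver (female, 14 months). A lesion and an adjacent liver that agree in sex and age were taken as 1 mouse, since the labels number no mice, and no aged wild-type liver was used here. In whole tissue, fewer cells of a type and less RNA per cell cannot be told apart.

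Cytosolic ribosomes are built from ribosomal RNA and a full set of ribosomal proteins, which are made in nearly equal numbers and assembled in the nucleolus into a small subunit, which reads the mRNA, and a large subunit, which joins the amino acids. Mammalian ribosomal protein mRNAs begin with a run of pyrimidines, the terminal oligopyrimidine tract, through which mTOR signalling controls their translation, so the mRNA level is only part of how much protein is made. In hepatocytes, which secrete much of the plasma protein, ribosomal protein mRNAs are among the most abundant transcripts. When assembly is disturbed, free Rpl5 and Rpl11 bind Mdm2 and stabilise p53.

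Some letter patterns, which the symbol rule did not use, were more frequent at the start sites of the members than over all promoters. The RefSeq promoter table (GRCm38.p6) held 40 of the 46 members. A run of at least 8 C or T overlapping the 10 bases on either side of the annotated start was present in 18 of these 40 (45.0%), against 13.5% of the 27025 promoters of the table. The letters CGGAAG, read on both strands within the 300 bases from 250 before to 50 after the start, were present in 29 of the 40 (72.5%), against 17.2% of all promoters. A C at the annotated start followed by at least 4 C or T was found in 8 members (20%), against 2.5%. The bright members with the largest knockout differences (Rps27l, Rpl35, Rplp2, Rps15) are printed beside members with knockout differences near or below 0 (Rpl4, Rps4x, Rps6), so that the start sites at both ends can be compared. Each runs from 35 bases before to 15 after the start in the sense direction, and capitals mark the longest run of C or T near the start.
Rps27l (chr9:66946051-66946100, plus strand): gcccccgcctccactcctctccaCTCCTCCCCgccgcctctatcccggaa
Rpl35 (chr2:39005117-39005166, minus strand): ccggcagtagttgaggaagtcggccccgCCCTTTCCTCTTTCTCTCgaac
Rplp2 (chr7:141447616-141447665, plus strand): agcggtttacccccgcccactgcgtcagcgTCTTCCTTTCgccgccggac
Rps15 (chr10:80292396-80292445, plus strand): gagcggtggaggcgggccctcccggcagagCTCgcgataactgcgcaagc
Rpl4 (chr9:64173352-64173401, plus strand): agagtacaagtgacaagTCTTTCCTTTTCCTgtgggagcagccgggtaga
Rps4x (chrX:102189377-102189426, minus strand): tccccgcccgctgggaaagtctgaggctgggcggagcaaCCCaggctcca
Rps6 (chr4:86857353-86857402, minus strand): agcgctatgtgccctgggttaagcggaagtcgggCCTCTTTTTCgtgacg
The run is 18 bases long in Rpl35, 14 in Rpl4, 10 in Rplp2 and Rps6, 9 in Rps27l, and 3 in Rps15 and Rps4x. Long and short runs were thus found at both ends of the knockout differences. These matches describe letters at annotated starts only.

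All arrays had been scaled to the same trimmed mean of 500, with median signals of 77.4 to 102.4. Gnmt itself went with the genotype labels, with wild-type signals of 59473 and 52140, knockout signals of 190.0 and 245 at 11 weeks, and 11.7 to 329 in the aged arrays. The hepatocyte markers summed to 195990.0 to 314204 in each array, and none of the 5 T and NK cell markers passed the filter on low signals. For the spiked hybridisation controls BioC and BioB, the ratio of the 3' probe sets was 3.90 to 5.09 in young arrays and 1.45 to 1.84 in aged ones. Age and any array batch therefore cannot be told apart. All young arrays were pools of 3 mice and all aged ones single mice, so pooling cannot be told apart from age either. The SEs and p-values rest on no more than the spread between these few arrays, moderated with that of other genes of like signal.

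The members were bright. The mean signal was above 10000 for 34 of the 46, and 43 passed the filter (mean log2 value above that of a signal of 91), 21 of the small and 22 of the large subunit. Left below it were Rpl3l, the form of heart and skeletal muscle, at 6.4 to 68.2, Rpl39l, a testis form, at 2.5 to 113.9, and Rps16. The single-gene probe set of Rps16, a core protein of the small subunit, gave 1.8 to 26.7, while its probe set shared with 2 further gene names gave 33491 to 58922. Another 7 members passed the filter with mean signals of 1000 or below: Rpl12, Rpl14, Rpl27a, Rpl39, Rps25, Rps27 and Rps6. Each of these 7 also had a brighter probe set that lists further genes, and its value is given beside the dim one where a dim member is named for a difference. The other 36 members past the filter had mean signals above 1000. Of the 46 probe sets, 14 had the suffix x and 2 the suffix s, which Affymetrix gave to sets that can also bind other transcripts. Signal from pseudogenes and relatives was thus not separated. A further 15 had the suffix a.

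Variation over the 10 arrays was small for most members. Among members past the filter the SD of the log2 values was lowest in Rps7 (0.19), Rps4x (0.19), Rpl19 (0.20), Rpl7 (0.20) and Rpl37 (0.21). Rps4x, the X-linked small subunit protein, had signals of 24812 and 25782 in the wild-type pools, 27220 and 23641 in the knockout pools (female and male), 22714 and 24626 in the nodule and its adjacent liver, 28090 and 29295 in the male HCC and adjacent liver, and 18443 and 23521 in the female HCC and adjacent liver. The lowest signal was that of the female HCC, and the groups of 11 weeks overlapped. Among members past the filter the SD was highest in Rps4l (1.88), Rps27 (0.94), Rps6 (0.69), Rpl12 (0.55) and Rps25 (0.52), all but Rps4l from dim probe sets.

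Each array's median deviation of the 43 members from their own means was -0.18 and -0.11 in the wild-type female and male pools, and 0.14 and 0.30 in the knockout female and male pools. Among aged arrays it was -0.18 in the nodule and -0.10 in its adjacent liver, 0.33 in the male HCC and 0.25 in its adjacent liver, and -0.36 in the female HCC and -0.10 in its adjacent liver. Both tissues of the 18-month male were high and the female HCC was lowest. The highest signal of a member fell in the male HCC for 19 members and in the male knockout pool for 13, and the lowest fell in the female HCC for 20.

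**Figure D1:**
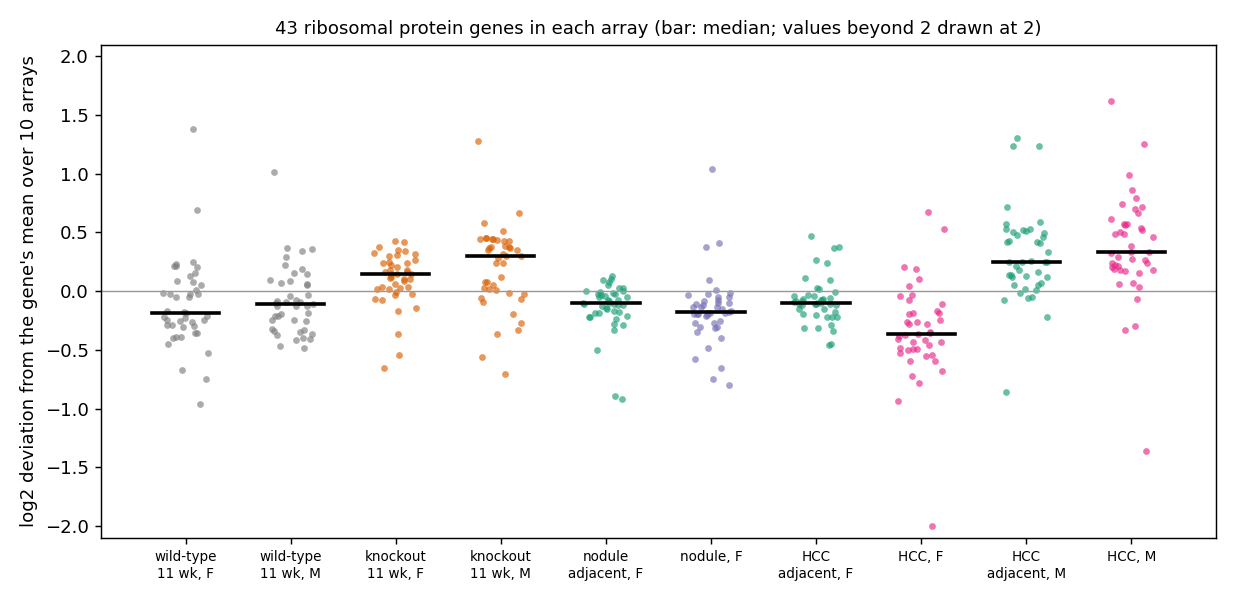
Log2 deviation of each of the 43 members past the filter (1 point a gene) from that gene's mean over the 10 arrays, by array, with F and M for female and male and a bar at the median. The medians run from -0.36 in the female HCC to 0.33 in the male HCC, and both knockout pools lie above both wild-type pools.

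The first comparison asked how ribosomal protein mRNAs differ in young liver without Gnmt. Most were slightly higher: 39 of 43 members had a positive log2 difference, knockout minus wild-type, against 45.6% of all 11032 genes tested. The median over the members was 0.21, beside -0.05 over all genes, and it was 0.23 between the female and 0.30 between the male pools. No member passed the test across all genes (limma, Benjamini-Hochberg adjusted p below 0.05), where 1.45% of genes did. The smallest adjusted p of a member was 0.0694. At an unadjusted p below 0.05 there were 14 members higher, where 9.33% of all genes were, and 1 lower, where 10.2% were. In 25 members both knockout signals exceeded both wild-type signals, against 22% of all genes, and 1 member was lower in both, against 26.1%.

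The shift was found in both subunits. All 22 large subunit members past the filter had a positive difference (median 0.26), and 17 of 21 small subunit members did (median 0.21). The 25 genes reached only through shared probe sets gave 23 positive values with a median of 0.26, and 0.29 and 0.24 in the female and male pools. Of 19 members with several single-gene probe sets past the filter, 14 had all their probe sets positive, 5 had probe sets of both signs and none had all negative.

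Of the p53-linked members, Rps27l and Rpl11 gave unlike values. Rps27l, a p53-induced relative of Rps27 that binds Mdm2, had signals of 13728 and 18456 in the wild-type female and male pools and 25824 and 31497 in the knockout ones. Both knockout values lay above both wild-type values, and the difference was 0.84 ± 0.17 (SE, n = 2 pools in each genotype, adjusted p from limma = 0.0694), 1.79-fold. All 3 probe sets of Rps27l gave 0.84 to 1.05. Rpl11, which with Rpl5 carries 5S ribosomal RNA and binds Mdm2, went from 15302 and 16941 to 16808 and 17936, a difference of 0.11 ± 0.18 (adjusted p = 0.781) with overlapping groups. Rpl5 itself, on a shared probe set, differed by 0.25.

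Among the large subunit proteins, Rpl35, which sits at the exit of the peptide tunnel, had signals of 15105 and 16265 in wild-type females and males and 25636 and 28280.0 in knockouts. The groups did not overlap, and the difference of 0.78 ± 0.17 (limma adjusted p = 0.0799) was 0.76 in females and 0.80 in males. All 5 of its probe sets past the filter were positive, from 0.62 to 0.78. Rplp2, an acidic stalk protein that recruits elongation factors, had signals of 15556 and 16882 in wild-type and 25348 and 26470.3 in knockout pools, a difference of 0.68 ± 0.17 (adjusted p = 0.109). Rplp0, which anchors the stalk, gave 19324 and 21752 against 18555 and 24893, with the male knockout highest and the female lowest, a difference of 0.07 ± 0.18 (adjusted p = 0.868). Rplp1, on a shared probe set, differed by 0.13, so the stalk genes did not give equal values. Rpl12, at the base of the stalk, had the largest fitted difference (0.997 ± 0.402, adjusted p = 0.238), but on a probe set of only 75.5 to 242 over all arrays. Its bright shared probe set gave 0.43. At the low end, Rpl4, whose loop lines the peptide tunnel, gave 26723 and 28328 against 31174 and 24529, a difference of 0.01 ± 0.18 that was 0.22 in females and -0.21 in males.

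Among the small subunit proteins, Rps15, needed for export of small subunit precursors from the nucleus, had signals of 14167 and 14500 in wild-type and 20908 and 22701 in knockout pools. Its difference was 0.60 ± 0.18 (limma adjusted p = 0.141), and the groups did not overlap. Rps19 and Rps26, both mutated in Diamond-Blackfan anaemia, gave 0.58 ± 0.19 (adjusted p = 0.177) and 0.39 ± 0.17 (adjusted p = 0.268). In the same group of disease genes, Rpl35a gave 0.19 on a shared probe set. Rpsa, a small subunit protein first described as a laminin receptor precursor, had signals of 14419 and 16584 in wild-type and 19832 and 22942 in knockout pools, a difference of 0.46 ± 0.17 (adjusted p = 0.213) with no overlap. Rps4x gave 0.00 ± 0.17 and Rps9, a protein of the small subunit body, -0.11 ± 0.18 (adjusted p = 0.787). The Rps9 value was 0.05 with each array centred on its 75th percentile.

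The members with the lowest values were Rps27, Rps6 and Rps4l. Rps27, a zinc-finger small subunit protein, had signals of 939 and 412 in wild-type and 235 and 209 in knockout pools, a difference of -1.42 ± 0.31 (limma adjusted p = 0.0808). Its bright probe set, shared with Rps27rt, gave 13614 and 13643 against 15907 and 21698, a mean difference of 0.45, so the readings of this gene had opposite signs. Rps6, the target of the S6 kinases, gave -0.35 ± 0.24 (adjusted p = 0.455) on its dim probe set and -0.15 on its bright shared one, with signals there of 42972 and 42233 in wild-type and 37873 and 39152 in knockout pools. On the shared probe set both knockout signals lay under both wild-type signals, and on the dim one the groups overlapped. Rps4l, an autosomal relative of Rps4x, gave -0.16 ± 0.27 (adjusted p = 0.796), with -0.58 in females and 0.27 in males. Shared probe sets of the other dim members gave 0.57 (Rps25), 0.40 (Rpl27a), 0.28 (Rpl39) and 0.21 (Rpl14), and that of Rps16 gave 0.03.

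**Figure D2:**
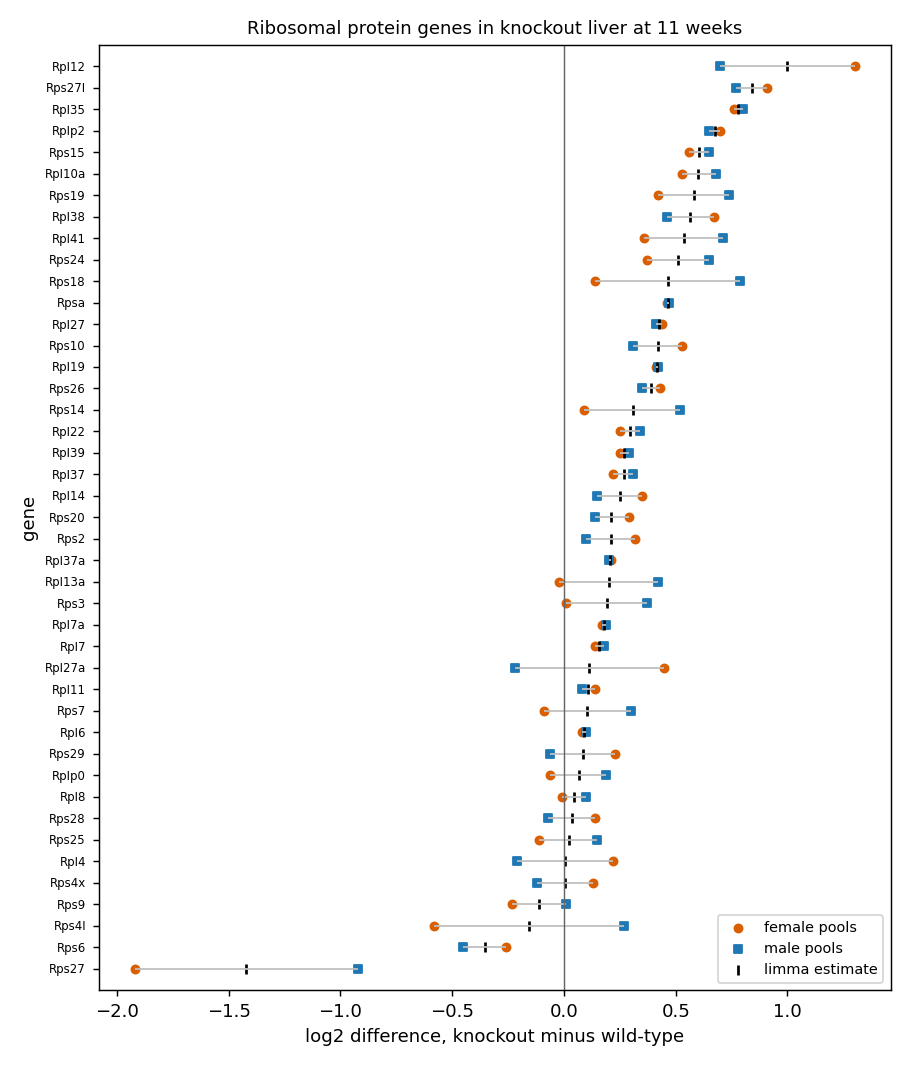
Log2 difference, knockout minus wild-type at 11 weeks, for the 43 members past the filter: circles for the female pools, squares for the male pools and a bar for the limma estimate. The estimates of 39 of 43 members lie right of 0, and Rps27 (-1.42) lies far to the left on a dim probe set.

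Scaling set whether any member was called. The shares of all genes called under the other scalings are not given here, so the counts below have no background beside them. With quantile normalization 4 members passed the adjusted threshold, Rps27l (0.82, adjusted p = 0.0204), Rpl35 (0.74, adjusted p = 0.0363), Rpl38 (0.65, adjusted p = 0.0451) and Rps27 (-1.26, adjusted p = 0.0315). With each array centred on its 75th percentile 3 passed, Rps27l (0.998, adjusted p = 0.0328), Rpl35 (0.94, adjusted p = 0.0382) and Rplp2 (0.83, adjusted p = 0.0496), but the median of all genes then moved to 0.10 from -0.05. The median of the members minus that of all genes was 0.26 in the main scaling, 0.22 with quantile normalization and 0.27 with the 75th percentile. In a model over all remaining arrays it was 0.15 without the female knockout pool or without the male wild-type pool, 0.40 without the male knockout pool and 0.44 without the female wild-type pool.

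Other measures differed with genotype. The 5 endothelial markers summed, female then male, to 10031 and 7093 in wild-type pools and to 3577 and 3594 in knockout pools, and 4 of 5 passed the filter. Of these, Stab2 and Oit3 were called lower, where 1.45% of all genes were called in either direction. The 6 Kupffer cell and macrophage markers, all past the filter, each had a fitted difference below 0 (median -0.53). At an unadjusted p below 0.05, 2 of them were lower, where 10.2% of all genes were. Their median was -0.85 between the female and -0.13 between the male pools, where Cd68 and Marco were slightly higher in knockout. They summed to 17255 and 11762 in wild-type and 10696 and 9817 in knockout pools. Of the 4 erythroid markers, 2 had a probe set and Alas2 alone passed the filter, and it was called lower in knockout (-1.49 ± 0.22, adjusted p = 0.0399). It was also called lower in females than in males (-2.93 ± 0.22, adjusted p = 0.00378). The erythroid probe sets summed to 854 and 6073 in wild-type and 348 and 2318 in knockout pools. The 3 proliferation markers with a probe set, all past the filter, summed to 77.0 and 277 in wild-type and 387 and 705 in knockout pools. The ratio of the 3' to the 5' control probe set of Actb, which rises where RNA is degraded, was 2.62 and 2.60 in wild-type and 3.38 and 3.18 in knockout. For Gapdh the same ratio was 0.938 and 0.982 in wild-type and 0.955 and 1.09 in knockout, so the genotypes overlapped. The part of any of these in the ribosomal protein values was not tested.

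**Figure D3:**
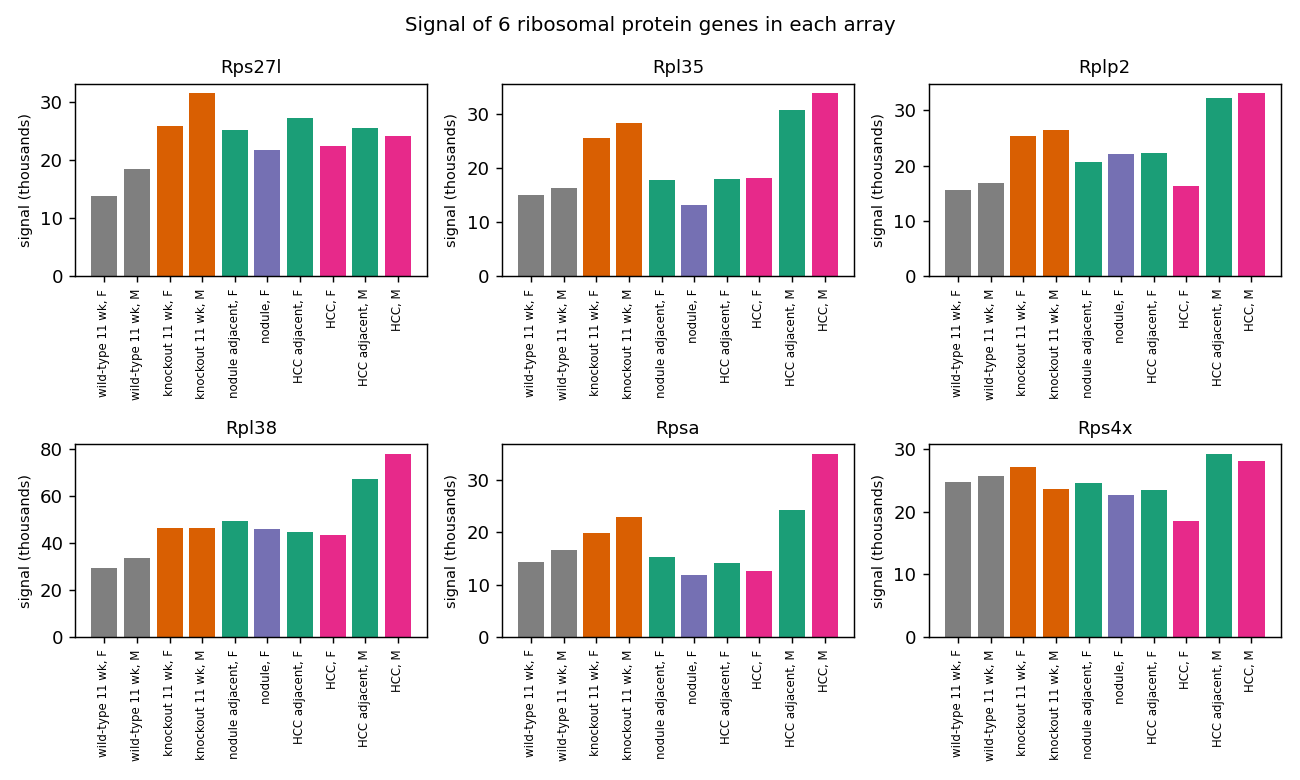
Signal on a linear scale from 0 of 6 ribosomal protein genes in each of the 10 arrays, 1 bar an array, coloured by group. Rps27l, Rpl35, Rplp2, Rpl38 and Rpsa are higher in both knockout pools than in both wild-type pools, and Rps4x is not.

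Relatives and partners of the ribosome were read on the same arrays. Among 39 ribosome assembly genes, which build the subunits in the nucleolus, 24 were positive with a median of 0.16 and none was called. Over all genes 45.6% were positive and the median was -0.05. At an unadjusted p below 0.05, 8 of the 39 were higher, where 9.33% of all genes were. The largest were Nop56 (1.18 ± 0.24, adjusted p = 0.0694) and Nhp2 (1.12 ± 0.21, adjusted p = 0.058), core proteins of the particles that modify ribosomal RNA. The 76 mitochondrial ribosomal protein genes, which encode the separate ribosome of mitochondria, had 72 positive differences and a median of 0.44. One of the 76, Mrpl13, passed the limma test (1.17 ± 0.21, adjusted p = 0.0496), where 1.45% of all genes did. These stand beside 39 of 43 and 0.21 for the cytosolic genes. The 14 translation factors with terminal oligopyrimidine tracts had 8 positive values and a median of 0.01, with Eif3e at 0.62 ± 0.23 and Eif4b at -0.59 ± 0.21. Among 12 growth signalling genes the median was -0.07, with Mtor at 0.52 ± 0.22 and Tsc2 at -0.51 ± 0.23, none called. Of 8 p53 response genes 6 were positive with a median of 0.70, and Ccng1 gave 1.31 ± 0.24 (adjusted p = 0.052).

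A ribosome component and relatives outside the rule also had values above 0. Fau, whose product carries the small subunit protein eS30, differed by 0.29 ± 0.17 (adjusted p = 0.407). Rpl7l1 and Rpl22l1, relatives of Rpl7 and Rpl22, gave 0.54 ± 0.26 and 0.25 ± 0.21, with neither passing the test.

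Between females and males at 11 weeks, the same 4 arrays gave small differences and no member was called (limma), where 0.272% of genes were. The median, female minus male, was -0.09, beside 0.03 over all genes, with 16 members positive (53.6% of all genes) and 27 negative. At an unadjusted p below 0.05 there was 1 member, Rps4l (-0.75 ± 0.27, adjusted p = 0.479), and 3.72% of all genes were lower at that threshold. Rps4l had signals of 1439 and 1804 in wild-type females and males and 956 and 2173 in knockout females and males, lower in the female in both pairs. Its difference was -0.32 in wild-type and -1.17 in knockout.

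Both female signals were below both male signals in 7 members, against 13.1% of all genes, and above them in 3, against 17.6%. The largest positive values came from the dim probe sets of Rps27 (0.66), Rpl39 (0.35), which lines the exit tunnel, and Rpl27a (0.32), whose bright shared probe sets gave -0.23, 0.01 and -0.12. Rps2 (0.21) and Rpl7 (0.16) followed. In the model over all 10 arrays Rpl27a (-0.28), Rps2 (-0.11) and Rpl7 (-0.12) were below 0. They were also below 0 in that model whichever 1 of the 4 young arrays was left out. Both kinds of fit took their sex term partly from aged tissue. Between the young pools Rps2 gave 0.11 in wild-type and 0.32 in knockout, Rpl7 0.18 and 0.15, and Rpl27a -0.02 and 0.65. Besides Rps4l, the lowest were Rps6 (-0.39, and -0.01 on its shared probe set), Rps27l (-0.36 ± 0.17, adjusted p = 0.576), Rplp0 (-0.30) and Rps19 (-0.26). Rps27l was lower in the female in wild-type (-0.43) and in knockout (-0.29). Rplp0 was -0.17 in wild-type and -0.42 in knockout. The members' median was -0.21 with each array centred on its 75th percentile, where all genes lay at -0.09. It was -0.30 in a model over all 10 arrays and 0.00 where probe sets with the suffixes x, s and a were left out.

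The HCC comparison asked whether ribosomal protein genes differ in tumour from the surrounding liver, and the 2 mice gave opposite signs. The median over members was 0.12 in the 18-month male (all genes -0.04) and -0.27 in the 14-month female (all genes 0.02). In the male 31 of 43 members were higher in tumour (46.2% of all genes), and in the female 9 were (51.4% of all genes). The fitted median was -0.10, beside -0.01 over all genes, with 13 members above 0 (49.1% of all genes), and no member was called (limma), where 0.0816% of genes were. At an unadjusted p below 0.05 there was 1 member, Rps25 (-0.98 ± 0.40, adjusted p = 0.613), and 3.32% of all genes were lower at that threshold.

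Rps25, needed for some internal initiation of translation, is read here by a dim probe set with 478 in the male and 274 in the female adjacent liver and 154 and 199.5 in the HCCs, so the groups do not overlap. Its bright shared probe set gave 0.10 in the male and -0.53 in the female. Rpl37 and Rps27l were the other members lower in both HCCs than in both adjacent livers, 3 in all, against 13% of all genes, and no member was higher in both, against 12.8%. Rps27l had 24011 and 25381 in the male HCC and adjacent liver and 22401 and 27192 in the female ones, a difference of -0.18 ± 0.27 (adjusted p = 0.946). Rpsa had 35114 and 24294 in the male and 12582 and 14201 in the female, so tumour was higher in the male (0.53) and lower in the female (-0.17). Rpl13a, also known for silencing of inflammatory mRNAs, gave 0.44 and -0.09, and Rpl8, near the catalytic centre, 0.19 and -0.83. Rpl27a (0.28, and 0.14 on its shared probe set), Rps20 (0.13) and Rps6 (0.12, and 0.30 on its shared probe set) were the other highest members, and none of the fitted values exceeded its SE.

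Rps4l and Rps27 had the largest values of opposite sign in the 2 mice. Rps4l had 2751 in the male HCC against 481 adjacent, and 13 in the female HCC against 1070.0 adjacent, differences of 2.48 and -5.19 after the constant was added. A signal of 13 is smaller than the constant (16.8) added before taking log2, so the size of the female difference depends on that constant. Without the male pair the fitted Rps4l difference was -4.93. That fit set the female HCC, 1 array, against the mean of its own and the nodule's adjacent liver, so it was not paired by mouse. The female HCC was the sole array in which the Rps4l signal was under the filter. Rps27 on its dim probe set had 127 in the male HCC and 889.5 beside it, and 569 in the female HCC and 252 beside it, differences of -2.66 and 1.12. On the bright shared probe set these were 0.05 and -0.09, so the dim reading was not repeated there. The male mouse stood apart in both tissues, with a neutrophil marker sum of 14984 in HCC and 14814 in adjacent liver, against 286 to 1399 in the other arrays. Proliferation marker sums were 2744 in its HCC and 982 in its adjacent liver, and 1374 and 716 in the female HCC and adjacent liver. The 3' to 5' ratio of Actb was 3.00 and 3.62 in the male HCC and adjacent liver, and 3.46 and 2.61 in the female ones. For Gapdh it was 1.30 and 1.33 in the male and 1.07 and 0.854 in the female. The 18S ribosomal RNA control signal was 19.5 and 57.3 in the male, and 21.5 and 79.1 in the female. The part of these in the members' values was not tested.

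Over all 3 lesions the median was -0.10, beside 0.00 over all genes, with 8 members positive (50.5% of all genes) and 35 negative. No member was called (limma), where 0.00906% of genes (1 gene) were, and at an unadjusted p below 0.05 there was no member either, against 9.93% of all genes. Rps27l was the 1 member whose signals in all 3 lesions lay below all 3 adjacent signals, against 4.12% of all genes, and no member lay above them in all, against 4.69%. The members' median minus that of all genes was -0.11 in the main scaling and -0.01 with quantile normalization. It was 0.01 without the female HCC and its adjacent liver, and -0.21 without the male pair. Rpl7a, at -0.36 ± 0.21 (adjusted p = 0.613), had the lowest value of a bright member apart from Rps4l. It had 16365 in the nodule against 25582 adjacent, 31978 in the male HCC against 32572, and 18825 in the female HCC against 25236. These are differences of -0.64, -0.03 and -0.42. Rpl11 gave -0.61, -0.02 and -0.04. Rps4l was at -0.48 ± 1.34. Of the dim members, Rps25 (-0.585, and -0.26 on its shared probe set) and Rpl14 (-0.23, and -0.09) were also low. The highest were Rpl12 (0.41, and -0.13 on its shared probe set), Rpl27a (0.20, and 0.10), Rpl13a (0.18), Rps19 (0.05) and Rps28 (0.03).

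The nodule was described without a test, as 1 lesion array and 1 array of adjacent liver. Its median was -0.11, beside 0.03 over all genes, with 11 members higher than in adjacent liver (52.1% of all genes). Among the 36 brighter members, 7 were higher in the nodule, 29 in the male HCC and 4 in the female HCC. The members' highest and lowest values were 1.33 (Rps27, dim, and -0.21 on its shared probe set) and -0.64 (Rpl7a). With quantile normalization the nodule's median was 0.07, on the other side of 0.

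**Figure D4:**
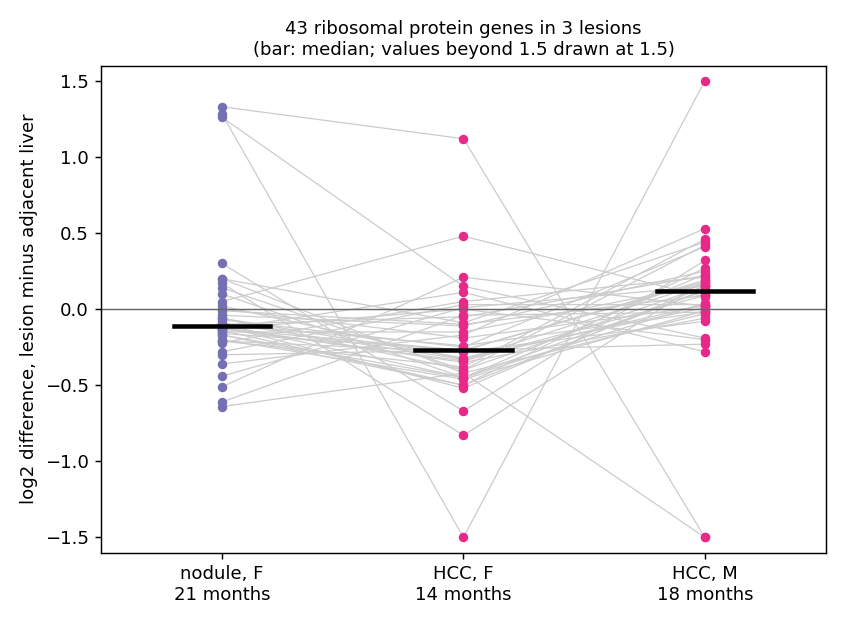
Log2 difference, lesion minus its adjacent liver, for the 43 members, with lines joining the same gene in the nodule, the female HCC and the male HCC and bars at the medians. The medians are -0.11, -0.27 and 0.12, and values past 1.5 are drawn at 1.5.

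In the last comparison the 3 aged adjacent livers were set against both young knockout pools, adjusting for sex. The knockout pools also entered the genotype comparison and the adjacent livers the lesion comparisons, so these results share arrays. The median was -0.13, beside 0.08 over all genes, with 15 members positive (57.2% of all genes). No member was called (limma), and neither was any other gene (0%). At an unadjusted p below 0.05 there were 6 members, 2 higher and 4 lower, against 12.3% of all genes. The median was -0.23 between females (6 of 43 positive, against 52.7% of all genes) and 0.04 between males (23 of 43 positive, against 58.5%). Relative to all genes the members' median was -0.21 in the main scaling and -0.01 with quantile normalization.

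Members below their young values included Rps3, which lines the mRNA entry channel, with 18473 and 22223 in the young female and male pools and 13698, 14779.7 and 12335 in the nodule-adjacent, male and female HCC-adjacent livers. All 3 aged values lay under both young ones, a difference of -0.54 ± 0.20 (limma adjusted p = 0.394). Rps19 gave -0.53 ± 0.21 and Rpl27, a large subunit protein, -0.51 ± 0.20. Rpl11 gave -0.49 ± 0.20 (adjusted p = 0.404), with signals of 16808 and 17936 at 11 weeks and of 11296 to 13629 in aged liver. In 10 members all aged values lay below both young ones (10.7% of all genes), each with a mean signal above 1000. Rps28 and Rps25 were the 2 members with all aged values above both young ones (17.1% of all genes). Rps25 at 0.98 ± 0.39, Rps6 at 0.93 ± 0.34 and Rps27 at 0.78 ± 0.51 were the highest, on dim probe sets whose bright shared ones gave -0.21, -0.20 and -0.41. Rpl27a (0.37) and Rps29 (0.36), a zinc-binding small subunit protein, came next, and the shared probe set of Rpl27a gave -0.21. Rps4l was lowest at -0.97 ± 0.47, with -0.09 in females and -2.14 in males. Without the female knockout pool it was the 1 member called (-2.14, limma adjusted p = 0.037), which is the male pair alone, 1 array against 1, with the spread taken from the aged female livers and the other genes. The Rps27l difference was -0.12 ± 0.21 (adjusted p = 0.824), so its signal in aged adjacent liver, at 25125 to 27192, was close to those of the young knockout pools. For comparison, 67 of 76 mitochondrial ribosomal protein genes were negative, with a median of -0.33, where 57.2% of all genes were positive.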

How the data were processed

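Per the labels' protocols, biotin-labelled cRNA was made from 5 ug of total liver RNA and hybridised to Affymetrix arrays. Per the submitters' processing notes the authors computed the values with GCOS, and its version and settings are not given in the sources used here. The authors deposited 1 linear signal intensity per probe set, scaled to a trimmed mean of 500 (2% left out at each end). Of 45101 probe sets, 64 were controls, 34945 listed 1 gene (34741 matched the mouse gene table), 932 several genes and 9160 none.

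Here, log2(signal + 16.8) was used, the constant being the 20th percentile of all values. A gene's probe set was that of highest mean log2 value, which for all 46 members was also that of highest mean signal. The filter on low signals, set at the median over the whole table (a signal of 91), kept 11032 of 18193 genes. limma 3.58.1 (R 4.3.3; lmFit, eBayes with an intensity trend) was fitted to all of them, with Benjamini-Hochberg adjustment and calls at an adjusted p below 0.05. Sex, genotype or mouse was a term, leaving 1 residual degree of freedom in the genotype, sex and HCC fits and 2 in the others. The number of arrays limits the precision. Fold changes are on the log2(signal + constant) scale. The procedure was also run on simulated data with independent noise in each gene and array, without mouse effects or array-wide shifts. That run cannot show how the fits behave where such shifts are present. Lesion and adjacent liver were paired by sex and age.

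The members and gene lists were chosen with earlier results of these data known. Genes were named by a rule: in each comparison the 5 highest and 5 lowest members, genes of fixed roles, the 5 most and least variable members, and up to 4 of each other list. Rpl38 was chosen after its values were seen. Alternatives were the added constant, scaling, filter, probe set choice, model, block and leaving out arrays; 2 more were chosen after seeing the data.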

Additional observations from a re-analysis of the deposited data

Results flagged for a closer look

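The members' median in HCC minus adjacent liver was 0.12 in the 18-month male and -0.272 in the 14-month female, on opposite sides of 0. Rps4l gave 2.48 in the male and -5.19 in the female, where the tumour signal was below the added constant, and Rps27 -2.66 and 1.12. In aged adjacent liver minus young knockout liver, the members' median was -0.23 between females and 0.042 between males. The HCC contrast has 1 pair a sex. In the age contrast the female side set the nodule-adjacent and female HCC-adjacent livers against 1 young pool. The male side set 1 aged liver against 1 young pool. The differences between the sexes were not tested.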

How the results depend on the processing

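The added constant, the filter, the intensity trend, the mean over a gene's probe sets, added relatives, and 2 alternatives chosen after seeing the data (probe sets of several genes added, members above a signal of 1000) left each count at 0 called. In knockout minus wild-type, 3 members were called with the 75th percentile (median 0.368, all genes moving from -0.048 to 0.103). With quantile normalization 4 were called. The shares of all genes called under these scalings are not given here. Without x, s and a probe sets the median was 0.261. For females minus males the medians were -0.215 (75th percentile), -0.3 (all 10 arrays) and 0.003 (no x, s or a). Leaving out 1 array or pair gave medians of 0.072 to 0.417 for genotype, -0.384 to -0.376 for sex, -0.278 to 0.225 for HCC (0.225 without the female pair), -0.188 to 0.003 for lesions and -0.23 to 0.042 for age, with 0 to 1 called in HCC and age and 0 in the others. The genotype, sex and HCC fits then used all remaining arrays, so their sex term came partly from aged tissue. In the HCC fits tumour was set against all remaining adjacent livers, that of the nodule among them, without pairing by mouse. With no replicate block, the fits without the sex, genotype or mouse term called 0 members, with medians of 0.211, -0.09, -0.099, -0.102 and -0.188 in the order above.

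Reversed genes were, for the 75th percentile, Rps9 (0.046, genotype), Rps19 (-0.02) and Rps28 (-0.036, lesions); for quantile normalization, Rplp0 (-0.066) and Rps4x (-0.077, genotype); for the mean over probe sets, Rps4x (-0.027, genotype), Rpl7 (-0.104, sex), Rpl27a (-0.541, HCC; -0.452, lesions) and Rps20 (-0.069, HCC); without x, s and a, Rps9 (0.045, genotype); and over all 10 arrays, Rpl27a (-0.281), Rpl7 (-0.116) and Rps2 (-0.111, sex). Leaving out arrays gave, for genotype, Rps4l (-0.978 to 0.662), Rps6 (-0.795 to 0.089), Rps9 (-0.341 to 0.12), Rplp0 (-0.192 to 0.328) and Rps4x (-0.253 to 0.262). For sex it gave Rpl27a (-0.561 to -0.361), Rpl7 (-0.205 to -0.195), Rps2 (-0.241 to -0.177) and Rps27 (-0.137 to 0.162), against main values above 0. For HCC it gave Rpl13a (-0.002 to 0.67), Rpl8 (-0.743 to 0.23), Rps27 (-1.7 to 1.356), Rps4l (-4.934 to 2.021), Rps6 (-0.031 to 0.298) and Rpsa (-0.224 to 0.688). For lesions it gave Rpl12 (-0.018 to 0.707), Rps19 (-0.135 to 0.276), Rps28 (-0.075 to 0.107) and Rps4l (-1.953 to 1.88), and for age Rpl27a (-0.31 to 1.274), Rps27 (-0.138 to 2.006) and Rps29 (-0.023 to 0.86). The cause of these reversals was not tested.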
